A study of Mus musculus with 24 samples.

Results

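The replication-dependent histone genes encode the linker histone H1 and the core histones H2A, H2B, H3 and H4. They were taken as the protein-coding genes of the GENCODE M21 mouse annotation whose symbols begin with Hist1h, Hist2h, Hist3h or Hist4h. This rule gave 67 genes, of which 65 had a row in the count tables of 50686 genes and 2, Hist1h2bm and Hist1h2bh, were not analysed here. The 65 comprised 6 H1, 18 H2A, 16 H2B, 12 H3 and 13 H4 genes. On GRCm38, 54 of the 67 lay in the Hist1 cluster on chromosome 13 between positions 21715763 and 23934851, and 10 in the Hist2 cluster on chromosome 3 between 96219865 and 96270132. A further 2 lay in the Hist3 cluster on chromosome 11, between 58948920 and 58956830. Hist4h4 lay alone on chromosome 6, between 136801553 and 136804415.

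RNA sequencing was done on the tissue labelled back left brain of C57BL/6 mice, in a model of pantothenate kinase-associated neurodegeneration, a disorder of coenzyme A synthesis in the nervous system. The Pank1-/-Syn-Pank2-/- double knockout mice (dKO), which lack Pank1 and carry a Pank2 knockout marked Syn in the labels, were compared with wild-type (WT) mice at days 10 and 20. Both sexes were sampled, giving 8 groups of 3 libraries, numbered here in the order of deposit because the labels give no replicate numbers, and no allele or treatment was given as shared by all groups. The sources used here do not say what Syn denotes, or in which cells Pank2 is removed. They also leave unsaid whether the 3 libraries of a group are 3 animals, so the spread behind each p-value may in part be technical. The library dKO male day 10 replicate 3 held 45964 gene counts and was left out, which leaves 6 WT and 5 dKO libraries at day 10 and 6 of each at day 20.

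Histone proteins package DNA into nucleosomes, and a cell that replicates its genome must make new ones in step with DNA synthesis. The replication-dependent genes are clustered, mostly have no introns, and are transcribed in S phase under NPAT. Their mRNAs normally end just after a short stem-loop bound by SLBP instead of in a poly(A) tail, and are degraded when DNA synthesis stops. Some of these genes can also give polyadenylated mRNAs that read past the stem-loop, mostly in cells that leave the cell cycle. The libraries were made with a poly(A)-selecting kit, so every level below is that of histone RNA recovered by this selection and may be a small and uneven share of the total.

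The stem-loop is shown for the members on which the results turn, since its place in the annotated transcript bears on what poly(A) selection can recover. A search for the pattern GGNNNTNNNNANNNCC, 16 bases with 6 base pairs and a loop of 4 bases, found it in 46 of the 52 members whose annotated transcript has at least 16 bases after the stop codon, or 88.5%. It was found in 2.08% of 20931 other protein-coding genes. The commonest form, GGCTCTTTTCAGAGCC, was in 26 members of the H1, H2A, H2B and H3 classes, and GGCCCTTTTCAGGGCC was in 7 H4 genes. In the lines below the 16 bases of the stem-loop are in capitals, 5′ to 3′ on the gene's strand, from GENCODE transcripts. Their GRCm38 positions are chr13:23739512-23739527 (plus strand) for Hist1h1c, chr13:23621782-23621797 (minus) for Hist1h1e, chr11:58949349-58949364 (plus) for Hist3h2ba and chr13:23745047-23745062 (minus) for Hist1h3c. Those of the others are chr13:23535889-23535904 (plus) for Hist1h3g, chr13:23757366-23757381 (plus) for Hist1h4b, chr13:23531458-23531473 (plus) for Hist1h4h and chr13:22040966-22040981 (minus) for Hist1h4i.
Hist1h1c: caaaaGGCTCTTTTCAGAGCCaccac
Hist1h1e: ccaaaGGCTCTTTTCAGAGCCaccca
Hist3h2ba: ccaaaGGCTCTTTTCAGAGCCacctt
Hist1h3c: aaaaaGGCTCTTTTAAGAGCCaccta
Hist1h3g: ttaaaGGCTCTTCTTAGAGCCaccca
Hist1h4b: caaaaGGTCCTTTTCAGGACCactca
Hist1h4h: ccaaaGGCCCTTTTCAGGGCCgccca
Hist1h4i: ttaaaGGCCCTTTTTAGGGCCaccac
The annotated transcript went on past the stem-loop for 840 bases in Hist1h1c, 1153 in Hist1h1e, 169 in Hist3h2ba and 330 in Hist1h4i. It ended 74 bases past it in Hist1h3c, 47 in Hist1h3g, 28 in Hist1h4b and 46 in Hist1h4h.

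Promoters are shown for an H1, an H3 and an H4 gene whose levels differed between genotypes at day 20. They are the 250 bases before the transcription start in RefSeq (GRCm38.p6), at chr13:23738557-23738806 (plus) for Hist1h1c, chr13:23745522-23745771 (minus) for Hist1h3c and chr13:23756687-23756936 (plus) for Hist1h4b. Capitals mark the motif CCAAT, read by the factor NF-Y, and in Hist1h1c also the H1 box AAACACA, an element of H1 promoters, on either strand.
Hist1h1c: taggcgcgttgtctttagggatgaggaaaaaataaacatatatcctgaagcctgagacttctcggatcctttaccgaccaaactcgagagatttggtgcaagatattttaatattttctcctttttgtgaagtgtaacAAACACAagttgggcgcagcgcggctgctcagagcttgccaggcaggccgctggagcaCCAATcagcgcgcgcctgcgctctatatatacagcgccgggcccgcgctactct
Hist1h3c: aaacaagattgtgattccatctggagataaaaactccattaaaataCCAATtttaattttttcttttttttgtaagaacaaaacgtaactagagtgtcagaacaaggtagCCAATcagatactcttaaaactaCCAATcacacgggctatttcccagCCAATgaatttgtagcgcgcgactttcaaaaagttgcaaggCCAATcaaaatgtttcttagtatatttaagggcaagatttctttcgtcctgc
Hist1h4b: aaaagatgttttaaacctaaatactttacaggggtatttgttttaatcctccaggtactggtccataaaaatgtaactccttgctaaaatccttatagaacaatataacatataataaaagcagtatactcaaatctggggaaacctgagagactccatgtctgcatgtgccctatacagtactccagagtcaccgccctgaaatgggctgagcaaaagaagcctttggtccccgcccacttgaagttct
Hist1h1c held 1 CCAAT and 1 H1 box, Hist1h3c held 5 CCAAT motifs, and none of the motifs searched was in the stretch shown for Hist1h4b. RefSeq and GENCODE starts can differ. The GENCODE gene Hist1h4b starts at 23757013, past the end of its stretch, so the bases just before that start are not shown.

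Promoters in RefSeq matched 62 members, each as a window of 250 bases before to 50 after the start, and both strands were searched. CCAAT was in 53 of the 62, against 37.9% of 27025 promoters. It was in every H1, H2A, H2B and H3 promoter matched and in 3 of 12 H4 promoters. TATAAA was in 35 of the 62, against 14.2% of all promoters. The octamer ATTTGCAT was in 7 of 18 H2A and 6 of 16 H2B promoters and in none of the other classes, against 1.75% of all. The H1 box was in 5 of 6 H1 promoters, against 7.14% of all. In 12 pairs, an H2A and an H2B gene were transcribed away from each other with 175 to 305 bases between their starts, so their promoter windows overlap and are not independent examples. The H2B gene Hist1h2bh and the H3 gene Hist1h3f were also paired in this way, 659 bases apart.

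The 23 libraries used held 9.19 to 44.7 M gene counts (M, 1000000 counts), so that 1 count was worth 0.0224 to 0.109 CPM, the unit of level used below (gene counts scaled to a library of 1000000). WT day 10 libraries ranged from 9.19 to 44.7 M, dKO day 10 from 10.8 to 20.0, WT day 20 from 18.7 to 42.5 and dKO day 20 from 15.9 to 27.3. Pank1, the deleted gene, stood at 6.71 to 8.87 CPM in the dKO libraries and 19.5 to 26.7 CPM in the WT libraries. Pank2, the other gene named in the genotype, stood at 44.6 to 52.1 CPM in dKO and 46.3 to 56.3 in WT at day 10, with overlap, and at 38.5 to 46.3 against 52.6 to 61.3 at day 20, without overlap. RNAs that carry no poly(A) tail took 1.64 to 2.09% of gene counts, so the selection for poly(A) was not complete, and Rn7sk, the small nuclear RNA of the 7SK particle, alone stood at 10410 to 13740 CPM. The labelled tissue was checked by its markers: the 8 neuron markers summed to 3484 to 4442 CPM in every library, and the 9 cerebellum markers to 480 to 2928 CPM. Of the 5 dKO libraries of day 10, 3 stood apart in ways that touch the members. In dKO female day 10 replicate 2, 52 of the 56 members tested lay above all 6 WT libraries, with cerebellum markers low. In dKO male day 10 replicate 2, 53 lay below all 6 WT libraries, with markers of proliferation, cerebellum and choroid plexus also low. In dKO female day 10 replicate 3, 43 members lay above all WT libraries and a run of 10 adjacent Hist1 genes was low against the rest of its cluster. The share of all genes outside the WT range was not counted for these libraries, so the counts cannot be called particular to the members.

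Of the 65 members, 56 passed the filter on low counts and were tested among 21657 genes. They were 5 H1, 14 H2A, 13 H2B, 11 H3 and 13 H4 genes. The other 9 held few counts over all 23 libraries. Hist1h2bq held 55, Hist1h1t, the linker histone of the testis, 49, Hist1h2ap 39, Hist1h2br 29 and Hist1h2ao 21. Hist1h2ba, the testis form of H2B, held 2, and Hist1h2aa, Hist2h2aa1 and Hist2h3c1 held 0, which allows up to 3 counts in a group. Members resemble each other, and the median share of a member's 50-base windows found in no other gene's transcript was 45.95% over the 67 genes. The H1 genes had a median of 98.9%. For 34 members the share was under 50% and for 5 it was 0. Reads that match several places are not in these counts, so the levels of members alike in sequence are uncertain. A window also counted as shared where another annotated gene overlaps it at the same place, on either strand, and the 2 cases were not told apart. Reads that match several places were 4.77 to 5.94% of all reads in the 23 libraries.

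**Figure D1:**
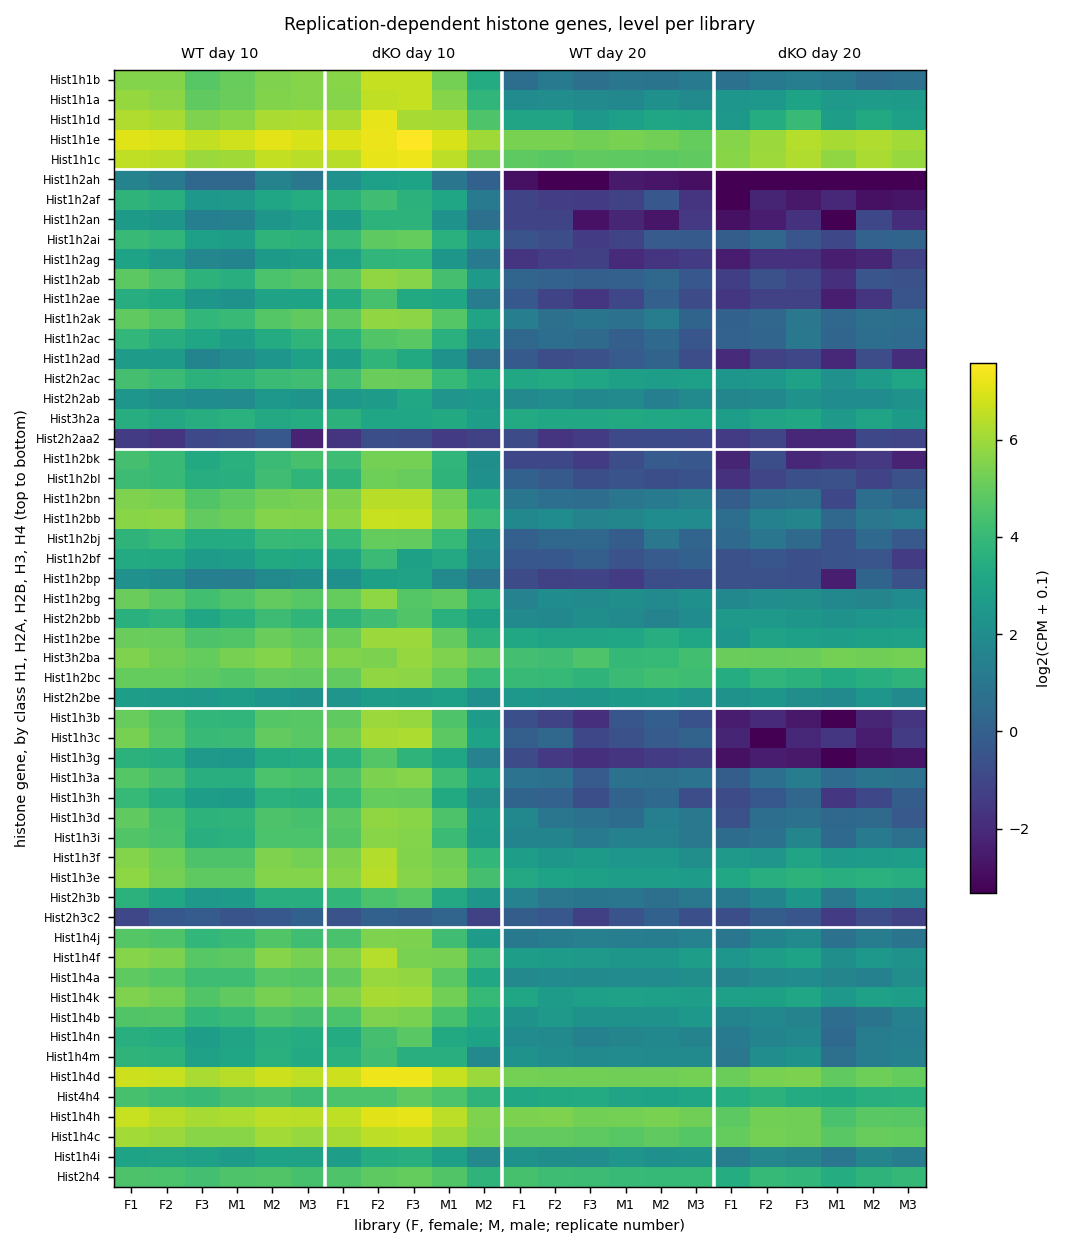
Levels of the 56 members tested (rows, by histone class) in the 23 libraries (columns, by genotype, day and sex), as log2(CPM + 0.1). Most rows are bright in the day 10 columns and dark in the day 20 columns, and dKO male day 10 replicate 2 is darker than its neighbours.

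Summed over the members, WT libraries of day 10 held from 1045 to 1717 CPM, with a median of 1516. WT libraries of day 20 held from 352 to 392 CPM, with a median of 362. The groups did not overlap, and the mean at day 20 was 25.8% of that at day 10, 367 ± 15.4 against 1424 ± 267 CPM (SD, n = 6 each). The H3 sum at day 20 was 11.2% of its value at day 10, the H2A sum 20.7%, the H1 sum 22.9%, the H2B sum 23.4% and the H4 sum 38.0%. H4 genes thus made up 31.3% of the histone counts in WT at day 10 and 46.2% at day 20.

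By gene, 52 of the 56 members tested were lower in WT at day 20 than at day 10 and 0 were higher by edgeR's quasi-likelihood test with Benjamini-Hochberg adjustment. Over all genes tested, 24.9% were called lower and 25.5% higher. The count at an unadjusted p under 0.05 was also 52 lower and 0 higher, and no alternative called a member higher. The median log2 change of the members was -2.87, beside a median of 0.005 over all genes tested. For 50 of the 56, every library of day 20 lay below every library of day 10, which held for 16.3% of all genes. In bulk tissue, fewer cells of a type and less RNA per cell cannot be told apart.

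All 5 H1 genes tested fell. Hist1h1e stood at 95.4 to 138 CPM at day 10 (median 123) and 31.9 to 41.6 at day 20 (median 39.5), a log2 change of -1.64 ± 0.16 (SE, adjusted p = 1.45e-07). Hist1h1c went from 61.5 to 95.0 CPM (median 86.8) to 27.2 to 29.8 (median 28.9), a change of -1.49 ± 0.20 (adjusted p = 8.675e-06). Neither gene overlapped between the ages, and their levels at day 20 were 32.1% and 35.4% of those at day 10. Hist1h1b fell by far more, from a median of 45.0 CPM (26.5 to 48.3) to 1.80 (1.41 to 2.22), a log2 change of -4.48 ± 0.33. Hist1h1a changed by -3.56 and Hist1h1d by -3.10 on the log2 scale.

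Among the core histones, the H2A class had the lowest median, -3.82, with 12 of 14 genes lower. The H3 class had a median of -3.30, H2B of -3.07 and H4 of -1.48. The steepest fitted fall was that of Hist1h2ah, an H2A gene, at -5.80 ± 0.50, from 1.15 to 2.83 CPM at day 10 to 0 to 0.0744 CPM at day 20, where its 6 WT libraries held 6 counts in all. Hist1h3b, an H3 gene, went from 14.5 to 32.5 CPM (median 24.9) to 0.185 to 0.842 (median 0.556), a log2 change of -5.50 ± 0.42 (adjusted p = 1.306e-08). Its highest library of day 20 was far under its lowest of day 10. Hist1h3c changed by -5.05 ± 0.41, the H2B gene Hist1h2bk by -5.02 ± 0.38, and Hist1h3g by -4.98.

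The H4 genes fell least as a class, though all 13 were called lower. Hist1h4h went from 70.0 to 101 CPM (median 84.8) to 36.8 to 44.4 (median 40.0), a log2 change of -1.06 ± 0.15 (adjusted p = 1.708e-05). Hist1h4d went from 73.0 to 107 CPM (median 97.1) to 36.3 to 39.3 (median 38.2), a change of -1.31 ± 0.13. Hist1h4j changed by -3.10 ± 0.27 and Hist2h4, on chromosome 3, by -0.36 ± 0.12 (adjusted p = 0.0181). The ages did not overlap for Hist1h4h or Hist1h4d.

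Of the 4 members without a call, 3 lie in the Hist2 cluster and the other in the Hist3 cluster. Hist2h2be, an H2B gene, stood at 4.64 to 6.69 CPM at day 10 and 5.01 to 6.12 at day 20, a log2 change of -0.10 ± 0.13 (adjusted p = 0.522). Hist3h2a, an H2A gene, stood at 9.31 to 12.2 and 8.74 to 10.1 CPM, a change of -0.18 ± 0.12 (adjusted p = 0.211). The ages overlapped for both. Hist2h2aa2 and Hist2h3c2, both under 1 CPM in every WT library, had changes of -0.12 ± 0.33 and -0.06 ± 0.28. The like-named Hist2h2aa1 and Hist2h3c1 held 0 counts, and 2 H2A and 2 H3 genes had no 50-base window of their own. The low levels of Hist2h2aa2 and Hist2h3c2 may be uncertain for that reason.

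Compared per kilobase of annotated exon, Hist1h4h had the highest median level in WT at day 10, 180 CPM per kb. Hist1h4k with 120, Hist1h4f with 106, Hist1h2bn with 102.5 and Hist1h2bb with 91.2 followed. At day 20 the order was Hist1h4h with 85.1 CPM per kb, Hist1h4c with 36.1, Hist1h4d with 33.6, Hist3h2ba with 31.1 and Hist1h4k with 22.7. The annotated exon length depends on where the annotation ends the transcript, so this order rests in part on the annotation.

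The size of the fall differed with the annotated 3′ end, which is described here with thresholds chosen after the values were seen. The 16 members tested whose transcript runs at least 200 bases past the stem-loop had a median log2 change of -1.57, and their median level at day 20 was 33.8% of that at day 10. The 23 with less than 200 bases past it had a median of -3.07, or 11.7%. The 17 with no stem-loop in the annotated transcript, 13 of which end at or next to the stop codon in the annotation, had a median of -3.56, or 8.36%. The 13 members with AATAAA or ATTAAA, the usual poly(A) signals, in the last 50 bases of the transcript had a median of -1.12, against -3.30 for the other 43.

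**Figure D2:**
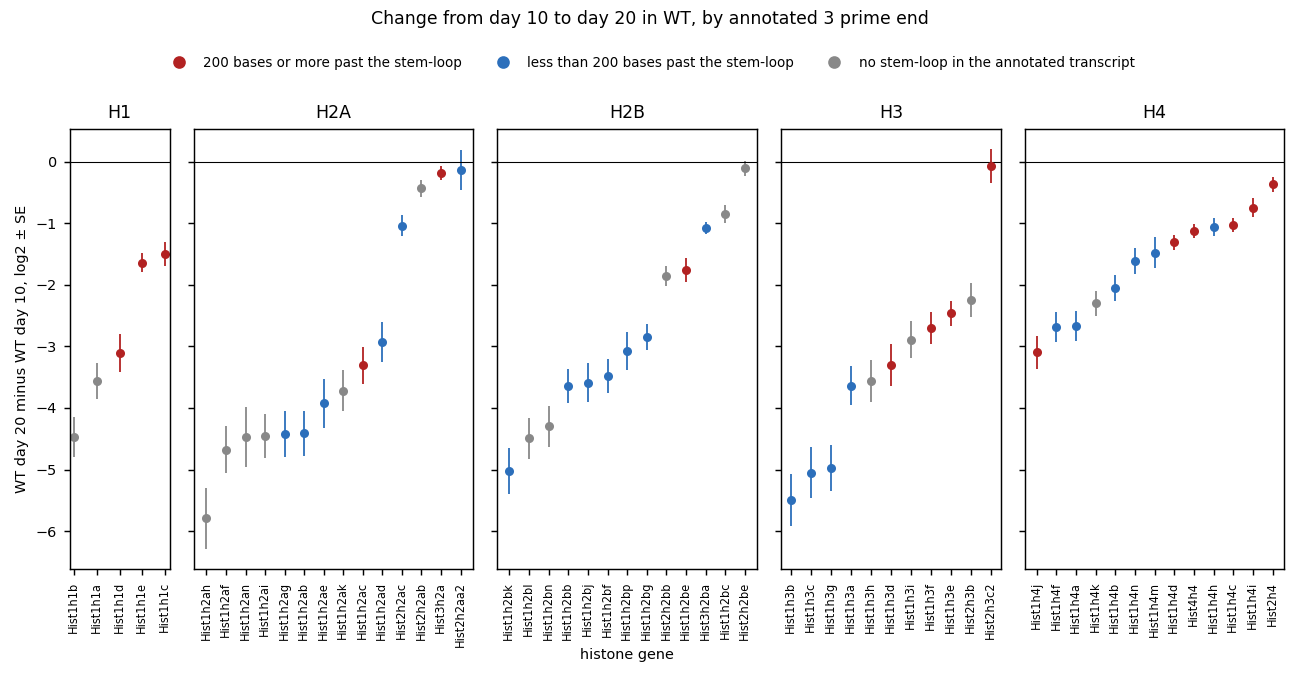
Log2 change of each of the 56 members tested from day 10 to day 20 in WT (y axis, points with SE), with genes along the x axis by histone class, coloured by the annotated 3′ end. All points lie below 0, and the members that run 200 bases or more past the stem-loop sit mostly nearer to 0, with a median of -1.57.

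Proliferation genes fell with the histone genes in WT, where 24.9% of all genes were called lower at day 20. Of 30 cell cycle genes tested, 29 were lower at day 20, among them Cdk1, the mitotic kinase, at -4.25 and Mcm6, a subunit of the replicative helicase, at -2.30. Their summed level went from 485 to 844 CPM at day 10 to 111 to 139 CPM at day 20. All 8 markers of cerebellar granule progenitors and neuroblasts fell too, from 504 to 874 CPM in sum to 81.8 to 101. The part of these cells in the fall of the histone genes was not tested.

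Genes of histone variants and chaperones also fell in WT, where 24.9% of all genes were called lower and 25.5% higher. Of 11 replication-independent variants, 10 were lower at day 20, with a median of -0.90. H2afy2, a macroH2A gene, changed by -1.43, Cenpa, the centromeric H3, by -2.86, H2afz by -0.86 and H3f3a by -1.20, while H2afj had a change of 0.09 and no call. Of 21 histone chaperones, 19 were lower, led by Nasp, which binds H3 and H4 before deposition, at -1.45, and Chaf1b, a subunit of the replication-coupled assembly factor CAF, at -3.88. Of 24 genes for histone mRNA processing and decay, 8 were lower and 4 higher. Slbp, the stem-loop binding protein, changed by -0.42, the Lsm11 subunit of the particle that cuts histone pre-mRNA by -0.56, and Npat by 0.22. Of 12 RNAs without poly(A) tested, 2 were higher and 4 lower, with a median of -0.01.

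At day 20, the dKO libraries differed from WT in both directions among the histone genes. Of the 56 members, 6 were higher and 9 lower in dKO, against 18.8% of all genes called higher and 19.2% called lower. In either direction, 15 of the 56 were called, beside 38.0% of all genes. The median log2 difference was -0.36, and -0.0003 over all genes tested. The counts at an unadjusted p under 0.05 were 8 higher and 13 lower, beside 22.8% and 23.1% of all genes. The highest class was H1, with 2 of 5 genes higher and a median of 0.70, and the other class medians lay below 0, from -0.53 for H3 to -0.20 for H4.

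**Figure D3:**
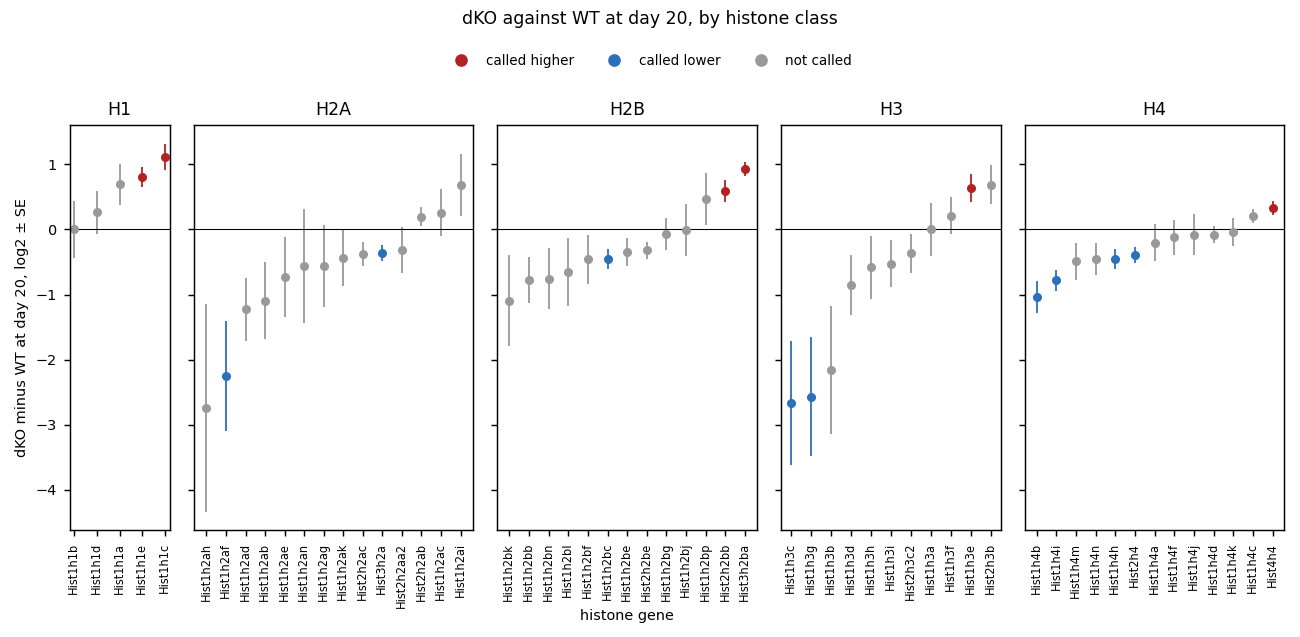
Log2 difference between dKO and WT at day 20 for each of the 56 members tested (y axis, points with SE), with genes along the x axis by histone class, coloured by the call. Of these, 6 points are called higher and 9 lower, and among the called genes Hist1h3c, Hist1h3g and Hist1h2af have the widest error bars.

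The linker histone genes Hist1h1c and Hist1h1e were higher in dKO than in WT at day 20. Where a level at day 20 is said to go from one range to another, the WT range comes first and the dKO range second. Hist1h1c, an intronless gene at chr13:23738808-23740367, stood at 27.2 to 29.8 CPM in the 6 WT libraries (median 28.9) and at 49.6 to 77.1 in the 6 dKO libraries (median 61.1). The log2 difference was 1.12 ± 0.20 (SE, adjusted p = 0.000317). Every dKO library was above every WT library. Hist1h1e went from 31.9 to 41.6 CPM (median 39.5) to 48.3 to 81.2 (median 68.8), a difference of 0.80 ± 0.16 (adjusted p = 0.000637), also with no overlap. Its annotated transcript overlaps Hist1h2be and Gm11398 on the same strand, where reads cannot be assigned. The third H1 gene whose groups did not overlap, Hist1h1a, stood at 3.32 to 4.32 CPM in WT and 5.13 to 7.77 in dKO, with a difference of 0.70 ± 0.32 that did not pass the test (adjusted p = 0.0980). Hist1h1b and Hist1h1d had differences of 0.00 ± 0.43 and 0.26 ± 0.33, with no call.

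Summed over the class, H1 stood at 75.7 to 83.9 CPM in WT at day 20 (median 81.4) and 110 to 185 in dKO (median 142). The H1 share of the members' counts was 21.9% in WT and 34.8% in dKO, while the H4 share was 46.2% and 36.0%. The sum over all members was 352 to 392 CPM in WT and 360.5 to 500 in dKO (means 367 ± 15.4 and 423 ± 52.4, SD, n = 6 each), so the groups overlapped.

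Among the H2B genes, Hist3h2ba was higher in dKO than in WT and Hist1h2bc was lower. Hist3h2ba, at chr11:58948920-58949533, stood at 15.4 to 23.6 CPM in WT (median 19.1) and 32.4 to 38.7 in dKO (median 35.5), a log2 difference of 0.93 ± 0.10 (adjusted p = 6.4e-07), with no overlap. Hist2h2bb went from 2.86 to 4.15 CPM (median 3.55) to 4.57 to 5.83 (median 5.47), a difference of 0.59 ± 0.17 (adjusted p = 0.00881), also without overlap. None of its 50-base windows is its own, and it overlaps Gm42743 on the same strand, so this level is uncertain. Hist1h2bc went from 13.6 to 19.0 CPM (median 16.7) to 10.1 to 14.2 (median 12.1), with overlap, a difference of -0.46 ± 0.15 (adjusted p = 0.0257).

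No H2A gene was called higher in dKO than in WT and 2 of 14 were lower. Hist1h2af held 54 counts over the 6 WT libraries and 9 over the 6 dKO libraries. Its level was 0.215 to 0.674 CPM in WT (median 0.320) and 0 to 0.136 in dKO (median 0.0603), a log2 difference of -2.25 ± 0.85 (adjusted p = 0.0444). The groups did not overlap, but 6.0% of its 50-base windows are its own and the call was lost in 15 of 32 alternatives. Hist3h2a went from 8.74 to 10.1 CPM to 5.66 to 9.21, a difference of -0.36 ± 0.12 (adjusted p = 0.0235), with overlap, and it shares its strand with Trim17. Hist1h2ah was at 0 counts in all 6 dKO libraries and held 6 counts in 4 of the 6 WT libraries, at least 1.67-fold lower over the group when the dKO group is set at 3 counts. It had no call.

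The H3 genes differed both ways between dKO and WT. Hist1h3e went from 6.23 to 9.35 CPM in WT (median 6.98) to 9.208 to 12.97 in dKO (median 11.3), a log2 difference of 0.64 ± 0.22 (adjusted p = 0.0287). The groups overlapped by a narrow margin. Hist1h3c held 121 counts in the 6 WT libraries, at 0.415 to 1.13 CPM (median 0.829), and 17 in the dKO libraries, at 0 to 0.274 CPM (median 0.124). Its difference was -2.67 ± 0.95 (adjusted p = 0.0363). Hist1h3g held 44 and 6 counts, at 0.185 to 0.457 CPM in WT and 0 to 0.0776 in dKO, a difference of -2.57 ± 0.92 (adjusted p = 0.0337). Neither gene overlapped between genotypes. Both rest on few counts, and their calls were lost in 14 of 33 and 10 of 32 alternatives.

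Among the H4 genes, 4 were lower in dKO than in WT and Hist4h4 was higher. Hist1h4b, at chr13:23757013-23757409, went from 4.53 to 5.88 CPM (median 4.62) to 1.40 to 3.26 (median 2.76), a log2 difference of -1.04 ± 0.24 (adjusted p = 0.00251). Hist1h4i went from 3.92 to 4.98 CPM (median 4.48) to 1.81 to 3.18 (median 2.60), a difference of -0.78 ± 0.16 (adjusted p = 0.000633). Neither gene overlapped between genotypes. Hist1h4h, the member with the highest level per kilobase in both genotypes, went from a median of 40.0 CPM to 28.1, a difference of -0.45 ± 0.16 (adjusted p = 0.0302), with overlap. Hist2h4 differed by -0.39 ± 0.13 (adjusted p = 0.0190) and Hist4h4 by 0.33 ± 0.11 (adjusted p = 0.0234), both with overlap. Hist1h4c and Hist1h4d, which follow Hist1h4h in level per kilobase in WT at day 20, had differences of 0.20 ± 0.11 and -0.08 ± 0.13 with no call.

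**Figure D4:**
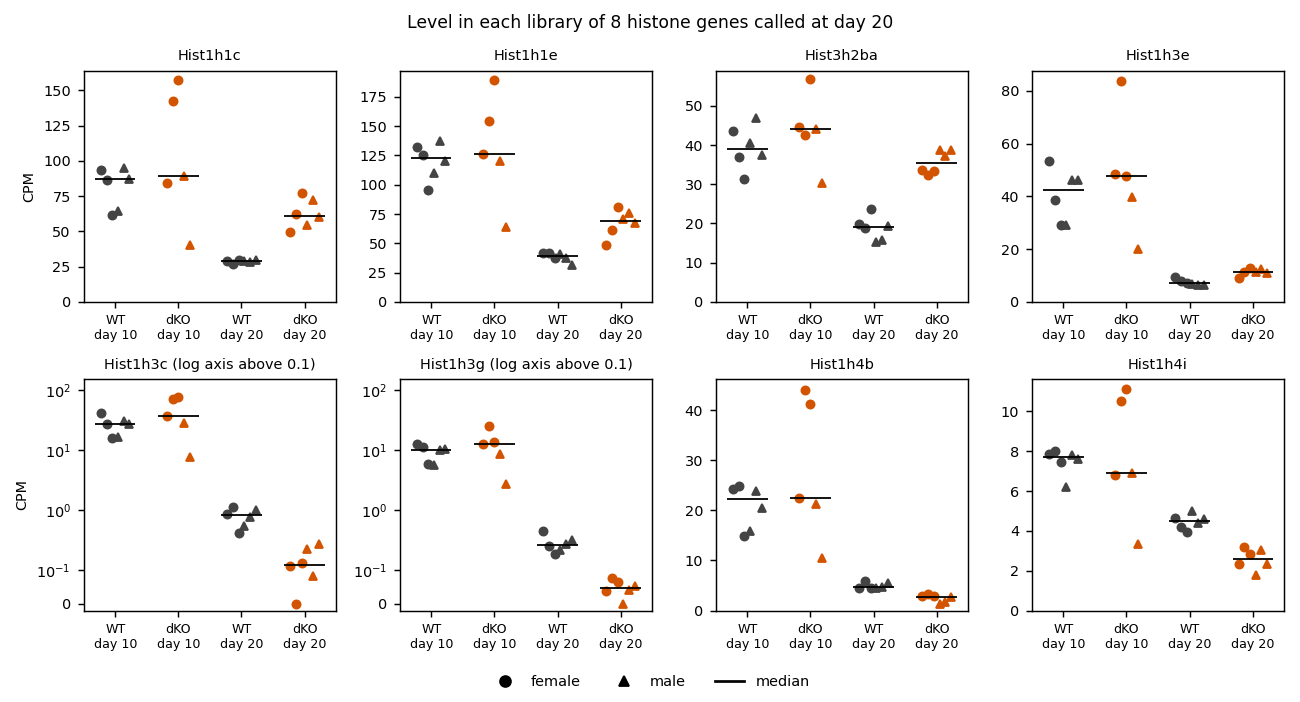
Level in CPM of 8 members in each of the 23 libraries (circles female, triangles male, lines at group medians), with Hist1h3c and Hist1h3g on a log axis. At day 20, the dKO libraries of Hist1h1c, Hist1h1e and Hist3h2ba lie above all WT libraries, and those of Hist1h3c, Hist1h3g, Hist1h4b and Hist1h4i below them.

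Counting members whose groups did not overlap at day 20, 5 were higher in dKO (Hist1h1a, Hist1h1c, Hist1h1e, Hist2h2bb and Hist3h2ba), beside 9.79% of all genes. Another 7 were lower (Hist1h2ab, Hist1h2af, Hist1h2be, Hist1h3c, Hist1h3g, Hist1h4b and Hist1h4i), beside 10.3% of all genes. The calls on Hist1h1c and Hist3h2ba held in all 33 alternatives. The number of lower members was less stable: it was 4 with no filter on low counts, 15 by DESeq2 and 20 with only the day 20 groups in the fit. These settings called 19.5%, 37.55% and 47.5% of all genes in either direction, against 38.0% in the fit reported. It was 2 without dKO female day 20 replicate 1, without dKO male day 20 replicate 1 or without WT female day 20 replicate 1, and 5 without WT male day 20 replicate 2, where 33.5 to 35.1% of all genes were called.

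Within each sex at day 20, the females gave 2 higher members (Hist1h1c and Hist3h2ba) and 0 lower by edgeR, beside 5.17% of all genes higher and 5.18% lower. The males gave 5 higher and 6 lower, beside 17.3% in each direction. The difference between the sexes was called for 0 members and 0 genes, and at an unadjusted p under 0.05 it was found for 1 member, Hist3h2ba, beside 7.52% of all genes higher in males. That gene differed by 0.68 ± 0.14 between genotypes in females and 1.18 ± 0.14 in males, on the log2 scale.

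Other gene lists also held calls between genotypes at day 20, where 18.8% of all genes were called higher and 19.2% lower. In either direction, 38.0% of all genes were called. Of the 30 cell cycle genes, 1 was higher and 7 were lower in dKO, among them Mki67, a marker of cycling cells, at -2.67 and Top2a, a topoisomerase of dividing cells, at -2.76. The summed level of this list was 111 to 139 CPM in WT and 107 to 128 in dKO. The 8 granule progenitor markers had no call. All 7 erythroid markers were lower, from 320.5 to 677 CPM in sum to 75.9 to 131, and 7 of 8 microglia markers, from 163 to 194 CPM to 94.0 to 144. So were 6 of 8 endothelial markers (302 to 315 against 217.5 to 276 CPM), 5 of 8 choroid plexus markers (1163 to 1482 against 471 to 865.5) and 3 of 8 oligodendrocyte markers. Of the microglia genes, Fcrls stood at -2.93 and P2ry12 at -1.67, and of the erythroid genes Slc4a1 at -3.66. Of 8 astrocyte markers 2 were higher and 2 lower, of 8 markers of oligodendrocyte precursors 1 and 1, and of 8 neuron markers 2 were lower. The 9 cerebellum markers and the 1 testis gene tested had no call. The part of these cells in the differences of the histone genes was not tested.

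Among histone variants, H1fx, a linker histone that does not depend on replication, was higher in dKO by 0.58 and H3f3b by 0.35, and the other 9 of 11 had no call. Of 21 chaperones, 7 were higher and 1 lower, beside 18.8% of all genes called higher and 19.2% lower. Hjurp, the chaperone of Cenpa, differed by 0.46, the CAF subunits Chaf1a and Chaf1b by 0.88 and 1.43, Hira by 0.29 and Npm1 by 0.22, while Nasp was lower, at -0.37. Of 24 processing and decay genes, 5 were higher and 4 lower, among them Cstf2, a cleavage factor for polyadenylation, at 0.45, Sympk, the scaffold shared by both kinds of 3′ processing, at 0.32, and Tut4, a terminal uridylyl transferase, at 0.37. Ncbp2, of the nuclear cap-binding complex, stood at -0.46, and Eri1, an exonuclease that trims histone mRNA, at -0.35. Slbp had a difference of 0.09 and no call. Of 12 RNAs without poly(A), 1, Vaultrc5, was lower, at -0.94.

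By annotated end, the median difference between dKO and WT at day 20 was 0.06 for the 16 members running at least 200 bases past the stem-loop, with 4 called higher and 3 lower. It was -0.46 for the 23 with less, with 1 higher and 4 lower. For the 17 with no stem-loop in the annotated transcript it was -0.43, with 1 higher and 2 lower. Beside these counts, 18.8% of all genes were called higher and 19.2% lower.

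At day 10, no member differed between dKO and WT by edgeR's quasi-likelihood test, against 3.23% of all genes called higher and 1.76% lower. DESeq2 and limma-voom also called 0 members. In either direction, DESeq2 called 2084 genes, 11.7% of those it gave an adjusted p, and limma-voom called 8.57% of all genes. At an unadjusted p under 0.05, 2 were higher (Hist1h2ah and Hist2h2ab) and 0 lower, beside 13.3% and 11.1% of all genes. The median log2 difference was 0.18, and 0.005 over all genes. Groups that did not overlap were seen for 0 members, beside 1.04% of all genes higher and 0.947% lower. Without dKO female replicate 2 or dKO female replicate 3, 0 members were called, where only 0.334% and 0.787% of all genes were called in either direction.

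The 5 dKO libraries of day 10 were spread far wider than the WT libraries. The members summed to 1645, 2777 and 2608 CPM in dKO female replicates 1 to 3 and to 1489 and 666 CPM in dKO male replicates 1 and 2, against 1045 to 1717 in WT. In female replicate 2, 52 of the 56 members lay above all 6 WT libraries, in female replicate 3, 43, in female replicate 1, 12, and in male replicate 1, 4. In male replicate 2, 53 lay below all of them. The median ratio to the WT mean ran from 0.4225 in male replicate 2 to 2.11 in female replicate 2. Among the WT libraries themselves, female replicate 3 had 39 members below the other 5. No matching share over all genes was counted for any of these libraries, so whether other genes lay outside the WT range as often is not known.

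The cell cycle list moved with these sums, at 789, 1351, 1222, 716 and 310 CPM in the same order, and Mki67 at 165, 293.5, 278, 143 and 44.9 CPM. In the cerebellum list, male replicate 2 was low, at 480 CPM, but so was female replicate 2, which had the highest histone sum, at 1059 CPM, against 1226 to 2928 in WT. Gabra6, a receptor subunit of cerebellar granule cells, stood at 30.5 CPM in male replicate 2 and 10.4 in female replicate 2, against 63.7 to 269 in WT. Male replicate 2 was also low in the choroid plexus list, at 196.5 CPM against 534.5 to 1116. In that library Ttr, the main secreted protein of the choroid plexus, stood at 1.90 CPM against 232 to 542 in WT. The part of cell composition in the spread of the histone genes was not tested.

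The dKO females had a median difference of 0.76 from WT females at day 10, with 1 member called higher, Hist1h2ah at 1.70 ± 0.35 (adjusted p = 0.0479), beside 0.143% of all genes higher, and 0 lower, beside 0.175%. The dKO males, with 2 libraries, had a median of -0.42 and 0 called, beside 0.00923% of all genes higher and 0.00462% lower. The difference between the sexes in the dKO effect was called for 0 of the 56 members, and at an unadjusted p under 0.05 it was lower in males for 43, beside 5.87% of all genes. Leaving out either dKO male library of day 10 leaves the other alone in its group, so no conclusion is drawn from calls on this difference in those fits. Against the mean of the WT libraries of day 10, the median ratio of the members was 1.04 in male replicate 1 and 0.42 in male replicate 2.

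In dKO female day 10 replicate 3, a stretch of the Hist1 cluster departed from the rest. Along the chromosome, 10 adjacent tested genes, Hist1h2af, Hist1h3g, Hist1h3f, Hist1h4f, Hist1h1d, Hist1h3e, Hist1h2ae, Hist1h2bg, Hist1h2bf and Hist1h2ad, were low against the other Hist1 genes of the same library. They span chr13:23533906-23574952, or 41.05 kb, and belong to all 5 histone classes. Each gene's log2(CPM + 0.1) was set against its median over the libraries of the same genotype and day. The mean of these deviations over the 10 genes minus that over the other 35 Hist1 members was -0.83. In the other 22 libraries the same difference lay between -0.11 and 0.21. No other stretch of 10 adjacent genes in those 22 libraries went below -0.43.

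Against dKO female day 10 replicate 2, which had a like histone sum, the 10 genes stood at ratios of 0.42 to 0.70, with a median of 0.52. The other 35 had a median ratio of 0.997 and ran from 0.62 to 1.33. Hist1h4f stood at 41.0 CPM in replicate 3 and 82.2 in replicate 2, and Hist1h1d at 70.9 and 141.5. The flanking genes did not share this: Hist1h4h, just before the run, stood at 141 and 137 CPM, and Hist1h3d, just after it, at 49.97 and 53.6. Hist1h4m, outside the run, had the lowest ratio of the others, 0.62. The stretch was found by scanning all runs after the values were seen, in 1 library, so it has no replicate and no test.

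**Figure D5:**
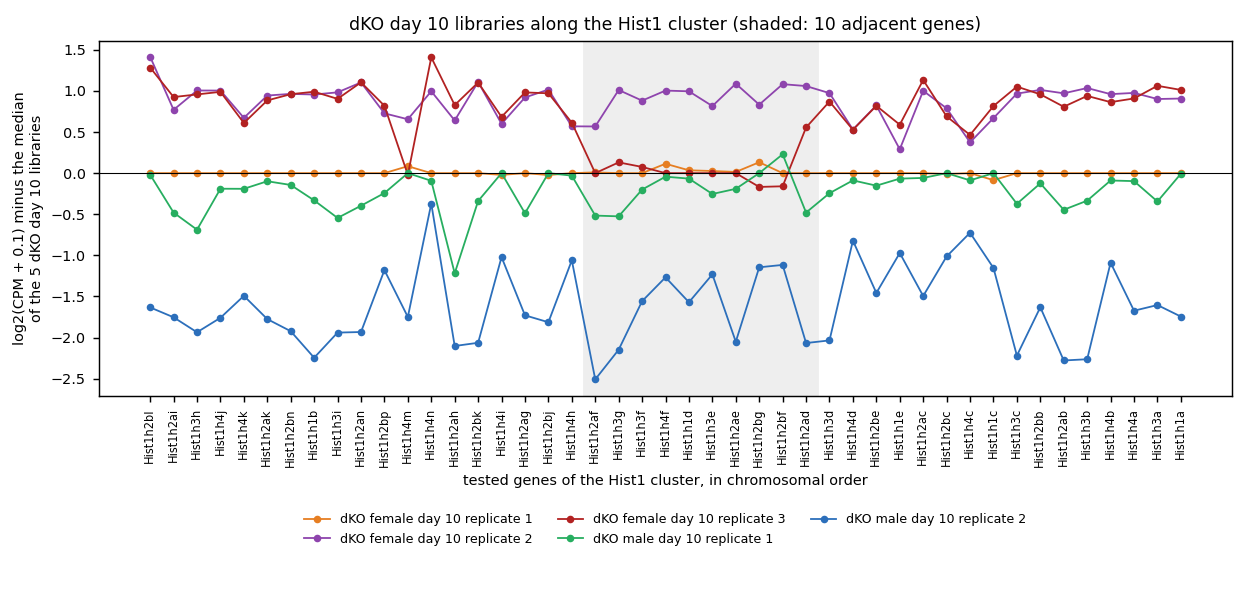
Deviation of log2(CPM + 0.1) from the median of the 5 dKO libraries of day 10 (y axis, a line per library) for the 45 tested Hist1 genes in chromosomal order (x axis). In female replicate 3 the shaded run of 10 genes has a mean of 0.04 and the other Hist1 genes 0.87, so the run is low against them by -0.83. In male replicate 2 the whole cluster is low, with means of -1.67 and -1.59.

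The dKO difference at day 20 was compared with that at day 10 in the same fit, which uses all 4 genotype and day groups and so shares libraries with each comparison above. It was higher at day 20 for 3 members and lower for 5, beside 13.6% and 14.7% of all genes. Hist1h1c had a change in the log2 difference of 0.95 ± 0.28 (adjusted p = 0.0203), Hist1h1e of 0.80 ± 0.22 (adjusted p = 0.0142) and Hist3h2ba of 0.82 ± 0.15 (adjusted p = 0.000383). The lower members were Hist1h3c at -3.01 ± 0.996, Hist1h3g at -2.67 ± 0.96, Hist1h4b at -1.26 ± 0.32, Hist1h4n at -0.89 ± 0.32 and Hist1h4i at -0.68 ± 0.23.

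The calls on Hist1h1e and Hist3h2ba held in all 30 alternatives of this comparison. The number of lower members was 3 without dKO female day 10 replicate 3, 15 without dKO male day 10 replicate 2 and 10 without dKO female day 10 replicate 1, where 26.1%, 21.7% and 28.3% of all genes were called in either direction. It was 1 without dKO male day 10 replicate 1, dKO female day 20 replicate 1, dKO male day 20 replicate 1, WT male day 10 replicate 1 or WT female day 20 replicate 1, where 24.9 to 32.4% of all genes were called. The number of higher members was 7 without dKO male day 10 replicate 1, where that share was 32.4%.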

How the data were processed

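The authors deposited per-gene read counts for each library. The submitters' processing notes name STAR 2.5.2b, HTSeq and GRCm38.p5, and the labels name a stranded kit with poly(A) selection. Each deposited table holds unstranded, forward and reverse counts for 50686 genes and 4 entries that name no gene, which were left out of totals and tests. They were, in percent of all reads, 41.7 to 47.5 without a feature, 4.77 to 5.94 mapped to several places, 0.589 to 1.05 ambiguous and 7.65 to 11.0 unmapped. Reverse-strand counts were used, since forward counts were 5.22 to 7.46% of them.

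Gene identifiers were named from GENCODE M21 (50462 matched, 224 did not). CPM values use TMM factors. Tests were edgeR 4.0.16 quasi-likelihood fits in R 4.3.3 with 8 group means over the 23 libraries with at least 1000000 gene counts. Genes were filtered by filterByExpr, tests were two-sided, p-values were adjusted over 21657 genes, and a call is an adjusted p under 0.05. SE is the log2 change divided by the square root of F. The fit was also run on simulated counts, and the outcome is not given here. In these counts few genes changed, and only in dKO at day 20, so the run does not cover data with this many calls. Values are given for members with a mean of at least 1 CPM (54 of the 56 tested) or a genotype call, and for Hist2h2aa2 and Hist2h3c2, below that mean, as members without a call in WT. From each list, up to 4 genes called between genotypes at day 20 with the smallest p were to be named. Other list genes, among them Slbp, Npat, Lsm11, Eri1, Nasp, Chaf1b, H2afj, Cdk1 and Mcm6, the run of 10 genes, the grouping by 3′ end and the shown sequences were chosen after values were seen. The members and all lists were chosen with earlier results of these data known.

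The 16 lists hold 192 symbols, 3 of them without a row. They cover cell cycle, histone mRNA processing and decay, replication-independent variants, chaperones, RNAs without poly(A), and markers of granule progenitors, neurons, cerebellum, astrocytes, oligodendrocytes and their precursors, microglia, endothelium, erythroid cells, choroid plexus and testis. Alternatives were RLE scaling, no filter, a stricter filter, unstranded counts, DESeq2 1.42.0, limma-voom (limma 3.58.1), all 24 libraries, only the groups compared, each library left out, and, added after seeing the data, each sex alone. Tables and figures used Python 3.11.15, numpy 2.4.6, pandas 2.3.3 and matplotlib 3.10.9.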

Additional observations from a re-analysis of the deposited data

Results flagged for a closer look

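In 7 of 228 groups of values, a library lay far from the rest of its group, where chance gives about 1 in 20 groups. At day 20 these were Hist1h2bk at 0.504 CPM in dKO female replicate 2, Hist1h2bf at 0.274 in dKO male replicate 3 and Hist1h3a at 0.785 in WT female replicate 3. WT male day 20 replicate 2 was apart for Hist1h2bj at 1.91 CPM, Hist1h2af at 0.674 and Hist1h2be at 10.8. At day 10, Hist1h4i stood at 6.22 CPM in WT male replicate 1, below the other WT libraries.

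The dKO difference from WT changed between days 10 and 20 for 8 of the 56 members by edgeR's test of that change. The same test called 28.3% of all genes in either direction. On the log2 scale the dKO difference was larger at day 20 for Hist1h1c by 0.95, Hist1h1e by 0.80 and Hist3h2ba by 0.82. The change was -3.01 for Hist1h3c, -2.67 for Hist1h3g, -1.26 for Hist1h4b, -0.68 for Hist1h4i and -0.89 for Hist1h4n.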

How the results depend on the processing

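The fall with age in WT kept its count within 51 to 53 of the members lower when each library was left out in turn, and 50 of its 52 calls held in every alternative run. Hist2h2ab, called lower, had a log2 change of 0.10 with unstranded counts, and the cause was not tested. Of the 15 calls between genotypes at day 20, 2 held in every alternative, and of the 8 calls for the change of the genotype difference with day, 2 did. At day 20 the lower members numbered 4 with no filter, 15 by DESeq2 (all 9 shared), 20 with only the groups compared (7 shared) and 0 in females, who had 2 higher. Leaving out each library gave 4 to 7 higher and 2 to 13 lower. At day 10 it gave 0 to 1 higher (1 without dKO female day 10 replicate 1), and females gave 1. For the change with day, lower members numbered 2 with no filter, 12 by DESeq2 and 2 by limma-voom, and the left-out libraries gave 2 to 7 higher and 1 to 15 lower. For the difference between sexes, 1 member was higher at day 20 with only the groups compared, and the left-out libraries gave 0 to 45 lower at day 10. The upper end of this day 10 range came from the fit without dKO male day 10 replicate 1. That fit leaves 1 library in its group, so no conclusion is drawn from it. The share of all genes called in either direction also moved with the setting. At day 20 it was 19.5% with no filter, 37.55% by DESeq2 and 47.5% with only the groups compared, against 38.0% in the fit reported. In females it was 10.35% at day 20 and 0.319% at day 10. Without dKO female day 10 replicate 1 it was 9.55% at day 10. For the change with day it was 13.15% with no filter, 28.7% by DESeq2 and 28.9% by limma-voom, against 28.3%. The cause of these shifts was not tested. For the ranges over left-out libraries, and for the counts on the difference between sexes, the matching shares over all genes are not given here. Those ranges and counts therefore cannot be called particular to the members. Members at under 1 CPM at day 20 rest on few counts. The median share of windows of their own was 62.9% with 100-base windows, and windows were set against GENCODE transcripts because a search of the genome was not run. No paired analysis was possible because the labels carry no replicate numbers, and the numbers used here follow the order of deposit and pair nothing.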
